A study of Homo sapiens with 6 samples.

Results

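Noncoding genes whose introns hold small nucleolar RNAs (snoRNAs) were followed in A549, an established line of human lung cancer cells (non-small-cell), with and without knockdown of the transcription factor FOXD3. The 10 host genes were GAS5, ZFAS1, SNHG1, SNHG3, SNHG5, SNHG6, SNHG7, SNHG8, SNHG12 and SNHG15, taken by name from the 17789 gene symbols listed in at least 1 library. Of these, 8 were matched by symbol and 2 by a RefSeq synonym, ZFAS1 being listed as ZNFX1-AS1 and SNHG15 as C7orf40. Each host was listed at 1 locus and in all 6 libraries, and all 10 passed the filter on low values. The hosts were measured apart from the snoRNAs in their introns.

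The study holds 3 control libraries, of wild-type genotype per the labels, and 3 FOXD3 knockdown libraries. Replicate numbers used here follow the order of the samples within each group, are not given by the labels and mark no pairing. All cells were grown in MEM with serum, glutamine, penicillin and streptomycin. Knockdown was by a pool of siRNAs against FOXD3 delivered by lipid transfection, and the labels time the check of the knockdown at 72 h after transfection. What the control wells received, and whether the 3 libraries of a group came from separate cultures, is not given in the sources used here, so p-values measure the spread between these libraries, which may be technical. Libraries were made with an Illumina TruSeq RNA kit, and levels are in FPKM, a fragment count divided by transcript length and by library size. FPKM is per length, so levels of different genes were set side by side, but only roughly. The annotation used is not given, and where loci overlap, reads cannot be assigned from these values.

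Box C/D snoRNAs guide ribose methylation and box H/ACA snoRNAs guide pseudouridylation, mostly of ribosomal RNA. A host gene is transcribed by RNA polymerase II and spliced, the snoRNA is trimmed out of the excised intron, and the joined exons are left as a separate RNA. Many of these spliced RNAs start with a run of pyrimidines, the 5′ TOP motif shared with messenger RNAs of ribosomal proteins, and are loaded on ribosomes and removed by nonsense-mediated decay. The amount of a host RNA and the amount of its snoRNAs are therefore different quantities.

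The start sites of hosts are printed to show the TATA-like element and the pyrimidine run that several of them share. Each promoter runs from 60 bases before the annotated start to 50 bases from it. It is read 5′ to 3′ in the direction of the RNA, on GRCh38.p14 from RefSeq. Positions are chr20:49278582-49278691 (plus strand) for ZFAS1, chr6:85678684-85678793 (minus) for SNHG5 and chr9:136728135-136728244 (minus) for SNHG7. Further positions are chr4:118278702-118278811 (plus) for SNHG8, chr1:28581824-28581933 (minus) for SNHG12 and chr1:28505883-28505992 (plus) for SNHG3. Capitals mark TATAA and the run of C and T that begins at the start, or the first transcribed base where there is no run. GAS5 is shown from the first base of a GAS5 transcript in GENCODE 29 (GRCh38, chr1:173867950-173867989, minus strand), with its opening pyrimidines in capitals. That transcript was picked because it begins with CTTTT, so its pyrimidine start was set by the choice.
ZFAS1: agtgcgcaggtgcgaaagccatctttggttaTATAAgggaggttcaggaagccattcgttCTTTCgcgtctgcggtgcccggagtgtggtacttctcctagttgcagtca
SNHG5: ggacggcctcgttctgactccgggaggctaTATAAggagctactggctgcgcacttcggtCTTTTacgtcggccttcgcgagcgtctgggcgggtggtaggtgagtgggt
SNHG7: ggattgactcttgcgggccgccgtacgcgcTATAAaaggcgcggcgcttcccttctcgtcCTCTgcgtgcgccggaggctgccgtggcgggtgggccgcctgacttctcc
SNHG8: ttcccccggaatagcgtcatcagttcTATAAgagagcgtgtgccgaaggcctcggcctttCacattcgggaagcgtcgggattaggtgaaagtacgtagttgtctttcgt
SNHG12: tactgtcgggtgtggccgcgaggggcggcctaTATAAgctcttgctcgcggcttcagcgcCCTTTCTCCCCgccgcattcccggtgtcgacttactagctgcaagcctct
SNHG3: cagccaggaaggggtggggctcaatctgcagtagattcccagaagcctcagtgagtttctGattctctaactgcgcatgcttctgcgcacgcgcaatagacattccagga
GAS5: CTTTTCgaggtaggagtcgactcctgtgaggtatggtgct

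RefSeq promoters were matched for 8 of the 10 hosts. Read in the direction of the RNA, TATAA lay 45 to 16 bases before the start in 5 of the 8 (ZFAS1, SNHG5, SNHG7, SNHG8 and SNHG12). The same held for 4.42% of all 27302 RefSeq promoters. TATAA on either strand of the whole RefSeq promoter window was found in 6 of the 8 and in 21.1% of all promoters. A start at C followed by at least 4 more bases that are C or T was found in 3 of the 8 (ZFAS1, SNHG5 and SNHG12) and in 4.04% of all promoters. Both features together were found in 26 promoters, 0.0952% of all, and 3 of the 26 are these hosts. GAS5 counted as lacking both because its RefSeq entry lies at another, upstream start, whereas 6 of the 29 GAS5 transcripts in GENCODE begin with the 6 pyrimidines printed above. These are matches of letters, not measured start sites.

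FOXD3 itself was near the limit of detection, at 0.152, 0.291 and 0.134 FPKM in the controls and 0.0749 FPKM in knockdown replicate 2, with no entry for the other two knockdown libraries (exact permutation test, two-sided, p = 0.1, the smallest that 3 against 3 libraries allow). The epithelial markers EPCAM, KRT8, KRT18, KRT19, KRT7 and CDH1 were all detected, with a summed level of 6743 to 7707 FPKM in the controls and 8754 to 8832 FPKM in the knockdown. The 7 leukocyte markers summed to 165 to 184 FPKM in the controls and 91.8 to 95.0 FPKM in the knockdown, carried by LCP1 and CD68. PTPRC stayed below 0.31 FPKM in every library, and CD3E was not listed in any control. The fibroblast list summed to 3.55 to 4.48 against 2.96 to 3.56 FPKM and the endothelial list to 2.61 to 3.42 against 1.90 to 2.18 FPKM. DCN, LUM, HBB and ALAS2 were listed in no library, and the part of other cell types in the results was not tested. Counts per gene were not available. A rough depth estimate used the 4 to 9 of 95 single-exon genes per library that fell in a preset window of 5000000 to 12000000 fragments. It gave 6440120 to 7910038 fragments per library, a result bounded by that window. At such a depth 1 FPKM would stand for 6.44 to 7.91 fragments per kb. Libraries of the same group correlated at 0.974 to 0.983 (Pearson's r of log2(FPKM + 1) across genes, which are not independent replicates), and no pair held the same table of values.

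In the knockdown libraries 7 of the 10 hosts fell (limma, Benjamini-Hochberg adjusted p under 0.05 over 13340 genes), none rose and SNHG3, SNHG12 and SNHG15 did not pass the test. By the same test 37.9% of all genes fell and 25.6% rose. The control and knockdown values did not overlap in the 7 that fell, with every control library above every knockdown library, as was the case for 40.8% of all genes. The median change of the 10 hosts was -0.47 on the log2(FPKM + 1) scale, knockdown minus control, against -0.09 over all genes tested. A fall of at least 2-fold was called in 3 hosts, GAS5, SNHG5 and ZFAS1, and in 5.73% of all genes. GAS5 kept a 2-fold fall in all 16 alternative settings, with changes from -1.51 to -1.29. ZFAS1 (-0.895) and SNHG5 (-0.969) fell short of 2-fold with median scaling, and also without control replicate 3 (-0.996 and -0.984). ZFAS1 also fell short with small RNAs left out (-0.983) and without knockdown replicate 3 (-0.986). In these bulk libraries less host RNA per cell cannot be told apart from fewer cells that carry it.

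**Figure D1:**
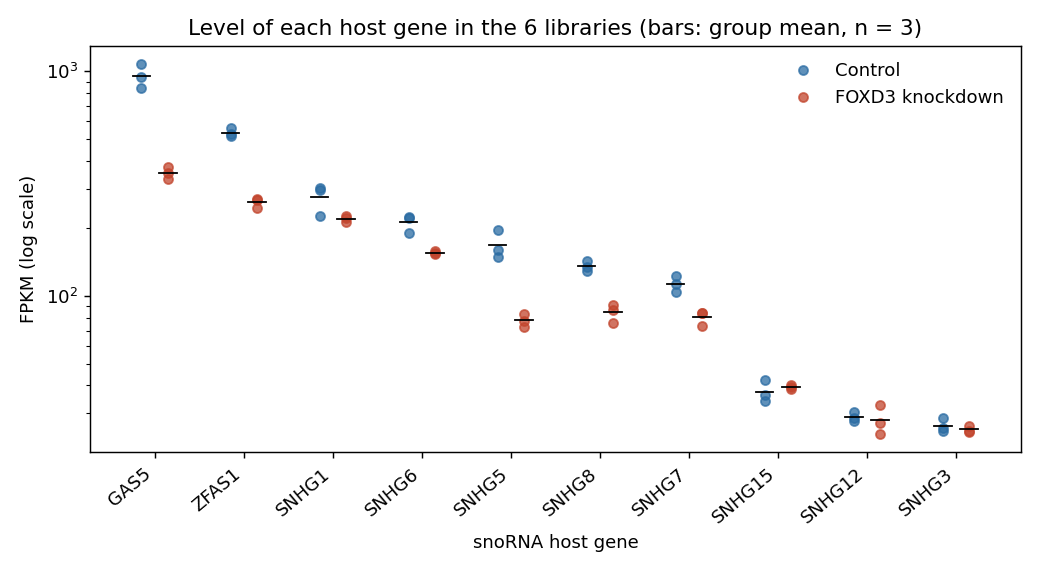
FPKM of each host gene (log axis) in the 3 control and the 3 FOXD3 knockdown libraries, 1 point per library with the group mean as a bar. GAS5 is the most abundant in both groups and shows the widest gap, 951 against 353 FPKM, while the points of SNHG3, SNHG12 and SNHG15 overlap.

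The hosts spanned a wide range of abundance. In the controls their order was GAS5, ZFAS1, SNHG1, SNHG6, SNHG5, SNHG8, SNHG7, SNHG15, SNHG12 and SNHG3. Control values of neighbours in that order overlapped only for SNHG6 with SNHG5 and for SNHG12 with SNHG3. In the knockdown the order was GAS5, ZFAS1, SNHG1, SNHG6, SNHG8, SNHG7, SNHG5, SNHG15, SNHG12 and SNHG3, with overlaps of SNHG8 with SNHG7, SNHG7 with SNHG5, and SNHG12 with SNHG3. SNHG5 thus went from the 5th place to the 7th. The 3 hosts that did not pass the test were the 3 least abundant in both groups.

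The 10 hosts together summed to 2309, 2441 and 2700 FPKM in the controls and to 1347, 1329 and 1302 FPKM in the knockdown. The summed level was lower in every knockdown library, at 1326 ± 22.8 FPKM (SD, n = 3) against 2483 ± 199 FPKM (SD, n = 3). GAS5 made up 38.2% ± 1.64 of this sum in the controls and 26.6% ± 1.96 in the knockdown (SD, n = 3 each).

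**Figure D2:**
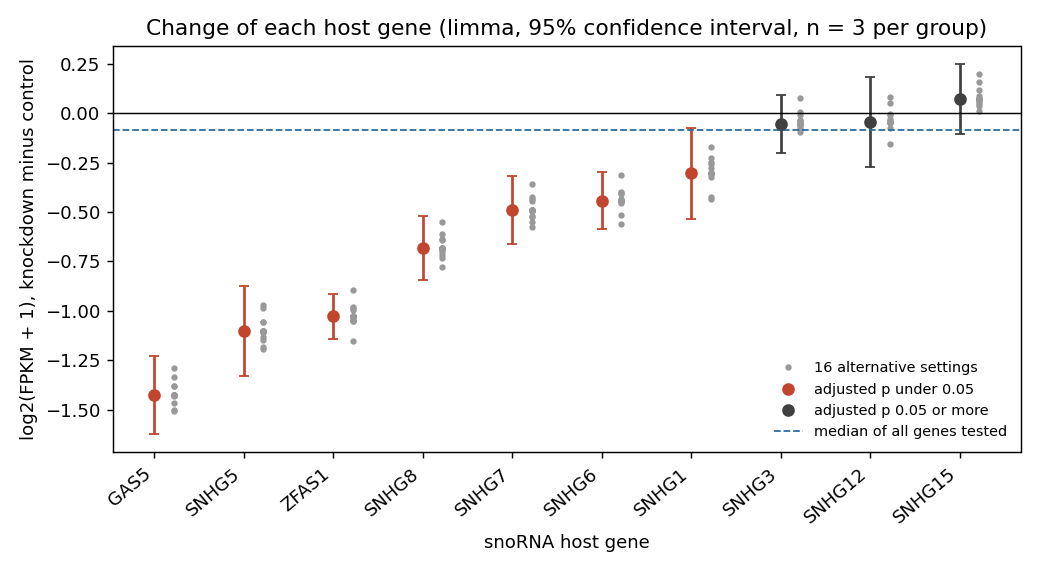
Log2 change of each host, on the log2(FPKM + 1) scale as knockdown minus control, with its 95% confidence interval from limma; red marks hosts past the threshold, grey dots the 16 alternatives and the dashed line the median of all genes tested. Intervals of 7 hosts lie wholly below 0, from GAS5 at -1.42 to SNHG1 at -0.30, and those of SNHG3, SNHG12 and SNHG15 include 0.

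GAS5 (growth arrest-specific 5, Entrez 60674) hosts mainly box C/D snoRNAs, and its spliced RNA is known to accumulate in growth-arrested cells and when translation is blocked. It lies at chr1:173833039-173837125 on hg19, the build of the deposited loci. Its level was 842, 938 and 1073 FPKM in the controls and 352, 331 and 374 FPKM in the knockdown. Every control library lay far above every knockdown library, and the controls varied more among themselves (951 ± 116 FPKM) than the knockdown libraries did (353 ± 21.6 FPKM, SD, n = 3). GAS5 fell by 1.42 on the log2 scale (SE 0.0857, limma adjusted p = 5.1e-06), a level 2.70-fold lower. It went from the 105th to the 251st most abundant of 17789 symbols, and its fall was the 261st largest of 13340 genes tested.

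ZFAS1 (Entrez 441951, chr20:47894715-47905795, hg19), an antisense RNA at the start of ZNFX1, hosts 3 box C/D snoRNAs of the SNORD12 family. Its level was 517, 527 and 557 FPKM in the controls and 267, 270 and 246 FPKM in the knockdown. The groups lay far apart and each was tight, with 533 ± 21.0 FPKM in the controls and 261 ± 13.0 FPKM in the knockdown (SD, n = 3). ZFAS1 fell by 1.03 (log2 scale, SE 0.0495, limma adjusted p = 1.97e-06), a level 2.04-fold lower, and had the smallest SE of the 10 hosts.

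SNHG5 (Entrez 387066, chr6:86386725-86388451, hg19) hosts the U50 box C/D snoRNAs and is known from a chromosomal translocation in B-cell lymphoma. It stood at 149, 160 and 197 FPKM in the controls and at 77.6, 82.9 and 72.8 FPKM in the knockdown. Control replicate 3 was the highest library, and the other controls also lay above all knockdown values. SNHG5 fell by 1.10 (log2 scale, SE 0.0989, limma adjusted p = 3.47e-05), a level 2.17-fold lower.

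SNHG6 (Entrez 641638, hg19 chr8:67834165-67837777), host of the box C/D snoRNA U87, stood at 222, 191 and 224 FPKM in the controls and at 153, 155 and 158 FPKM in the knockdown. The knockdown libraries were nearly level with each other and all lay below the lowest control. SNHG6 fell by 0.44 (log2 scale, SE 0.0625, limma adjusted p = 0.000406), a level 1.36-fold lower.

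SNHG1 (Entrez 23642, chr11:62619460-62623360, hg19) is the gene in which a host with no protein-coding exons was first described, and it holds 8 box C/D snoRNAs. It stood at 227, 302 and 295 FPKM in the controls and at 223, 227 and 213 FPKM in the knockdown. Control replicate 1 lay almost on the highest knockdown library, so the groups barely separated. SNHG1 fell by 0.30 (log2 scale, SE 0.1, limma adjusted p = 0.0277), the smallest fall called. Without control replicate 1 the change was -0.43 (adjusted p = 7.82e-05), whereas the call was lost without control replicate 2 (adjusted p = 0.0907) or 3 (0.0913) and without knockdown replicate 1 (0.0611), 2 (0.0523) or 3 (0.0814). It was also lost with median scaling, with no filter and with no variance trend, so the SNHG1 call was lost in 8 of 16 alternatives, with adjusted p from 7.82e-05 to 0.141.

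SNHG8 (Entrez 100093630, chr4:119199917-119200978, hg19), host of the box H/ACA snoRNA SNORA24, stood at 144, 130 and 135 FPKM in the controls and at 90.9, 86.7 and 76.2 FPKM in the knockdown. All controls lay well above all knockdown libraries. SNHG8 fell by 0.68 (log2 scale, SE 0.0703, limma adjusted p = 7.14e-05), a level 1.61-fold lower and the deepest fall among the 5 hosts of mainly H/ACA snoRNAs.

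SNHG7 (Entrez 84973, chr9:139619046-139622636, hg19), which holds box H/ACA snoRNAs, stood at 113, 104 and 122 FPKM in the controls and at 83.6, 84.1 and 73.2 FPKM in the knockdown. The groups did not overlap. SNHG7 fell by 0.49 (log2 scale, SE 0.0746, limma adjusted p = 0.000608), a level 1.41-fold lower.

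The other three hosts of mainly H/ACA snoRNAs did not pass the test. SNHG3 (Entrez 8420, chr1:28832455-28837404, hg19), host of the U17 snoRNAs, stood at 25.0, 25.8 and 28.7 FPKM in the controls and at 26.5, 25.0 and 24.9 FPKM in the knockdown, and the groups overlapped. The change of SNHG3 was -0.05 (95% interval -0.20 to 0.09, limma adjusted p = 0.493). SNHG12 (Entrez 85028, chr1:28905050-28908366, hg19), with 3 H/ACA snoRNAs and 1 C/D snoRNA, stood at 27.6, 28.7 and 30.3 FPKM in the controls and at 32.8, 27.3 and 24.4 FPKM in the knockdown. The knockdown libraries of SNHG12 held both the highest and the lowest value of the 6, and its change was -0.04 (95% interval -0.27 to 0.18, limma adjusted p = 0.711).

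SNHG15 (Entrez 285958, chr7:45022627-45026259, hg19), host of SNORA9, stood at 42.3, 34.2 and 36.1 FPKM in the controls and at 40.2, 39.5 and 38.4 FPKM in the knockdown. Control replicate 1 was the highest library of all and the other two controls were the lowest. The change of SNHG15 was 0.07 (95% interval -0.10 to 0.25, limma adjusted p = 0.435). Without control replicate 1 SNHG15 was 0.16 higher in the knockdown and passed the test (adjusted p = 0.0213). The intervals of SNHG3, SNHG12 and SNHG15 all stay above -0.30, so a fall like that of GAS5, SNHG5, ZFAS1 or SNHG8 lies outside them.

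The hosts were also grouped by the snoRNAs they hold, a grouping made after the values were seen and given with no test. The 5 hosts of mainly box C/D snoRNAs (GAS5, ZFAS1, SNHG1, SNHG5 and SNHG6) all fell, with changes from -1.42 to -0.30 and a median of -1.03. Of the 5 hosts of mainly box H/ACA snoRNAs (SNHG3, SNHG7, SNHG8, SNHG12 and SNHG15), 2 fell, with changes from -0.68 to 0.07 and a median of -0.05. A share of 2 in 5 is near the 37.9% of all genes that fell, and the call of SNHG1 among the box C/D hosts was lost in 8 of 16 alternatives.

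In the authors' deposited table, which gives 1 value per group, GAS5 stood at 877 FPKM in the control and 351 FPKM in the knockdown, a log2 change of -1.32 with a false discovery rate of 0.000722. The authors' deposited table gave SNHG5 157 and 77.7 FPKM, a log2 change of -1.01 and the same false discovery rate. The authors' deposited table gave ZFAS1 519 and 277 FPKM, a log2 change of -0.91 and a false discovery rate of 0.0476. These 3 of the 10 hosts were lower at a false discovery rate under 0.05 in the authors' deposited table, as were 11.2% of the genes it lists. GAS5 and SNHG5 are also in the subset the authors' deposited table calls, which holds 8.63% of its genes. The authors' deposited table gave SNHG8 132 and 88.1 FPKM with a false discovery rate of 0.141, and the remaining 6 hosts had rates from 0.320 to 0.959. Loci of GAS5, ZFAS1, SNHG3, SNHG6, SNHG7 and SNHG12 in the authors' deposited table are merged with those of neighbouring genes.

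Genes within 5000 bp of a host were read because several share a promoter region or overlap the host; they were chosen by position, after values of these data had been seen. ZBTB37, a zinc finger gene that starts 367 bp from GAS5, stood at 1.82 ± 0.141 FPKM in the controls and 1.65 ± 0.311 FPKM in the knockdown (SD, n = 3), a change of -0.09 (95% interval -0.36 to 0.17, limma adjusted p = 0.509). ZNFX1, whose locus overlaps that of ZFAS1 by 42 bp, stood at 22.6 ± 1.62 and 21.6 ± 0.591 FPKM, a change of -0.06 (95% interval -0.21 to 0.09, limma adjusted p = 0.438). The intervals of GAS5 (-1.62 to -1.23) and ZFAS1 (-1.14 to -0.91) do not meet those of these neighbours. Divergent transcription from a shared promoter region is common for such noncoding genes.

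SLC3A2, an amino acid transporter subunit 123 bp from SNHG1, fell by 0.24 (SE 0.0382, limma adjusted p = 0.000737), from 220 ± 5.42 to 185 ± 3.60 FPKM. Its fall was close to that of SNHG1, and unlike the SNHG1 call it held in all 16 alternatives. PRSS12, a secreted serine protease 214 bp from SNHG8, fell by 0.94 (SE 0.0858, limma adjusted p = 3.69e-05). Its level was low, 4.79 FPKM in the controls and 2.01 FPKM in the knockdown, or 2.39-fold lower. The log2(FPKM + 1) scale understates a change at such levels. FAM69B, which overlaps SNHG7 by 125 bp, fell by 0.64 (SE 0.116, limma adjusted p = 0.00151), from 10.3 to 6.27 FPKM. RCC1, the exchange factor for Ran, overlaps all 4950 bp of SNHG3 and rose by 0.53 (SE 0.0455, limma adjusted p = 2.74e-05), from 44.7 ± 0.906 to 65.0 ± 2.30 FPKM. The deposited loci of RCC1 and SNHG3 start at the same base, chr1:28832455. Reads in the overlapping stretch cannot be assigned between SNHG3 and RCC1 from these values, and the level of SNHG3 carries that limit. TRNAU1AP, which overlaps SNHG12 by 8 bp, changed by -0.15 (95% interval -0.33 to 0.03, limma adjusted p = 0.131) and did not pass the test.

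**Figure D3:**
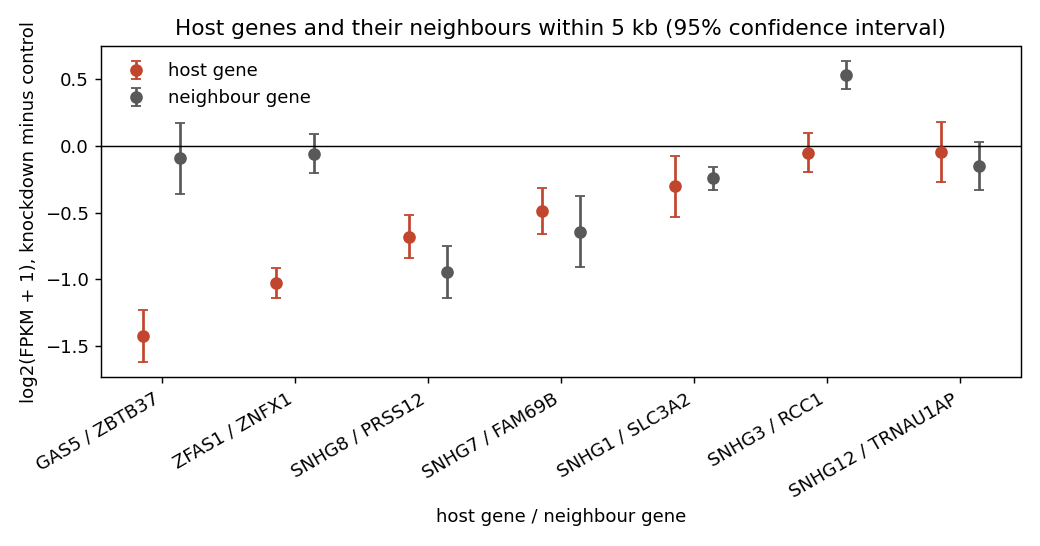
Log2 change, knockdown minus control with 95% confidence intervals from limma, of 7 hosts (red) and of the tested genes within 5000 bp of them (grey). GAS5 and ZFAS1 are far below their neighbours ZBTB37 and ZNFX1, SNHG1 and SLC3A2 lie close together, and RCC1 is above 0 where SNHG3 is near 0.

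The snoRNAs inside the hosts were hardly measured. RefSeq places 36 snoRNAs of 60 to 207 nt within the 10 hosts, of which 11 lie in GAS5, 9 in SNHG1, 4 in SNHG12 and 3 in ZFAS1. Of the 36, 7 were listed in at least 1 library, by symbol or RefSeq synonym, and these are 126 to 134 nt long. None of the 25 under 110 nt was listed, against 7 of the 11 that are longer, so no snoRNA of GAS5, ZFAS1 or SNHG5 had a value. The short box C/D and the longer box H/ACA form are shown by snoRNAs of hosts above, read from GENCODE 29 (GRCh38) at chr20:49278940-49279028 (plus strand) for SNORD12C of ZFAS1, chr6:85677589-85677658 (minus) for SNORD50B of SNHG5, chr4:118279190-118279320 (plus) for SNORA24 of SNHG8 and chr7:44985378-44985510 (minus) for SNORA9 of SNHG15. Capitals mark the C box TGATGA and the D box CTGA in the SNORD sequences and the ACA near the 3′ end in the SNORA sequences.
SNORD12C: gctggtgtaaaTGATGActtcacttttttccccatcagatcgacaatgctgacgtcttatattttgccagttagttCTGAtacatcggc
SNORD50B: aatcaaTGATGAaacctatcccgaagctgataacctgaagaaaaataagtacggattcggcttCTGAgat
SNORA24: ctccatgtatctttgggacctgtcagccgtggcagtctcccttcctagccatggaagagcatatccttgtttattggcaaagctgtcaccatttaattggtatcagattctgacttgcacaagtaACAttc
SNORA9: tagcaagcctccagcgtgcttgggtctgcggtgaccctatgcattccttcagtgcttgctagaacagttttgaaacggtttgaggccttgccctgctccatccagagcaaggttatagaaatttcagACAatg

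The same 7 snoRNAs lie inside the hosts by the deposited hg19 loci. SNORA9, inside SNHG15, was listed at 427 FPKM in control replicate 1, at 372 FPKM in control replicate 3 and at 741, 707 and 318 FPKM in the knockdown. SNORA24, inside SNHG8, was listed at 696 FPKM in control replicate 1 and 597 FPKM in knockdown replicate 1 and in no other library. SNORD22, inside SNHG1, was listed only in knockdown replicate 2, at 11560 FPKM, the library in which snoRNAs held 4.82% of the FPKM total against 0.961% to 1.91% in the others. SNORA43, inside SNHG7 and named SNORA17B in RefSeq, was listed only in knockdown replicate 3, at 265 FPKM. Inside SNHG12, SNORA44 was listed in control replicates 2 (505 FPKM) and 3 (470 FPKM), SNORA61 in knockdown replicates 2 (1504 FPKM) and 3 (675 FPKM), and SNORA16A in control replicate 2 (326 FPKM) and knockdown replicates 2 (583 FPKM) and 3 (263 FPKM). Since an unlisted snoRNA can be a failed estimate, no fold change or test is given for them.

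Of the 4 box C/D core proteins 3 rose and none fell, with a median log2 change of 0.69. Over all genes 25.6% rose and 37.9% fell, with a median of -0.09. NOP56 went from 67.4 ± 3.47 to 148 ± 4.31 FPKM (change 1.12) and NOP58 from 27.3 ± 3.94 to 53.4 ± 2.04 FPKM (change 0.95). The methyltransferase FBL rose by 0.43, and NHP2L1 (0.10) did not pass. NHP2L1 passed as higher with median scaling (0.24, limma adjusted p = 0.00555), with small RNAs left out (0.15, 0.0119) and without control replicate 1. Its value was -0.03 with quantile normalization (limma adjusted p = 0.608). All 4 box H/ACA core proteins rose, with a median of 0.53, led by the pseudouridine synthase DKC1 at 53.0 ± 1.57 and 123 ± 5.49 FPKM (change 1.20, SE 0.048, limma adjusted p = 1.03e-06, SD over n = 3). NOP56, NOP58 and DKC1 are themselves hosts of snoRNAs in protein-coding genes. Of 12 factors that assemble snoRNPs 9 rose and 1 fell, with a median of 0.38, and 2 fell without control replicate 1. With median scaling 10 of the 12 factors rose and 0 fell. HSP90AA1 (1.29), NOLC1 (0.87) and RUVBL1 (0.68) had the largest changes among them.

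Nonsense-mediated decay is a known route for removing spliced host RNA, and genes of decapping and RNA decay were read beside it. Of 18 nonsense-mediated decay factors 14 rose and 1 fell, with a median of 0.32, against 25.6% of all genes that rose. UPF3B went from 13.8 to 25.7 FPKM (change 0.86), the exon junction protein MAGOHB changed by 0.78 and the cap-binding protein NCBP1 by 0.76, while UPF3A fell by 0.32. Of 21 decapping and decay genes 9 rose and 2 fell, with a median of 0.18, against 25.6% and 37.9% of all genes. Only 1 fell when any single library other than control replicate 1 was left out. With median scaling 13 rose and 0 fell, and with quantile normalization 11 rose and 1 fell. EXOSC2 (0.78) and EXOSC3 (0.61) of the RNA exosome rose, as did DBR1 (0.66), which opens intron lariats, and the exonuclease XRN1 fell by 0.36, a call lost in 8 of 16 alternatives. These are RNA levels of the factors, and decay of the hosts was not measured.

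**Figure D4:**
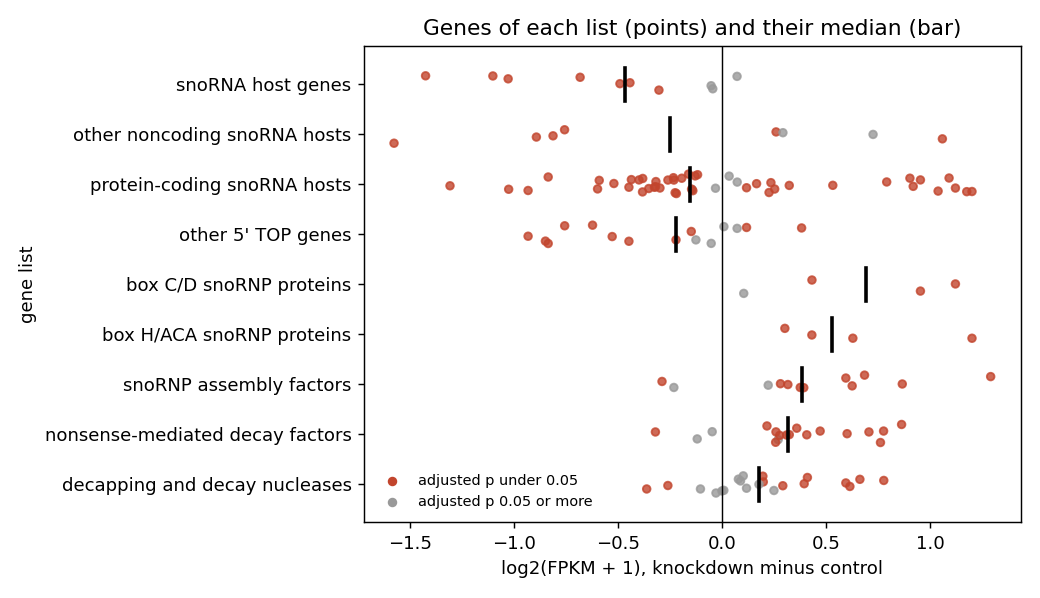
Log2 change, knockdown minus control, of every tested gene in the host list and in each related list, 1 point per gene (red past the threshold, grey not) with the list's median as a bar. The host list has a median of -0.47, and the medians of the box C/D proteins (0.69) and box H/ACA proteins (0.53) lie above 0.

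Other genes with a 5′ TOP start were compared because some GAS5 transcripts and 3 of the 8 hosts with a RefSeq promoter are annotated to begin with such a run. Of 15 such genes, leaving ribosomal proteins aside, 9 fell and 2 rose, with a median of -0.22. Over all genes 37.9% fell and 25.6% rose, with a median of -0.09. Of all 13323 genes tested with median scaling 3928 fell and 4539 rose, and with quantile normalization 3909 of 13340 fell and 4304 rose. Among the 15 genes, 7 fell and 4 rose with median scaling, and 12 fell and 1 rose with quantile normalization. The count of risers was also 1 with no variance trend and without control replicate 3, knockdown replicate 2 or knockdown replicate 3. The elongation factors EEF2 (1000 ± 34.3 to 524 ± 5.74 FPKM, change -0.93) and EEF1A1 (5406 ± 419 to 2996 ± 60.3 FPKM, change -0.85) and TPT1 (-0.84) fell, and NPM1 rose by 0.38. EEF2, TPT1, GNB2L1 and EEF1B2 are in this list and also among the protein-coding snoRNA hosts below, so the lists are not separate. Of 13 genes of TOR signalling and LARP1, which control 5′ TOP messenger RNAs, 7 rose and 2 fell, with a median of 0.12. This stands against 25.6% and 37.9% of all genes. Only 4 of the 13 rose without control replicate 2 or without knockdown replicate 3, and 8 rose with median scaling. EIF4EBP1, which binds EIF4E and keeps it from EIF4G, fell by 0.92, EIF4E rose by 0.75 and MTOR rose by 0.64.

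Of 8 further noncoding hosts that were listed, 4 fell and 2 rose, with a median of -0.25, against 37.9% and 25.6% of all genes. The count of risers was 1 without control replicate 1, without knockdown replicate 2, with no filter and with no variance trend. It was 3 with median scaling, with quantile normalization and with small RNAs left out. EPB41L4A-AS1 went from 36.0 ± 1.89 to 11.5 ± 1.82 FPKM (change -1.58, SE 0.104, limma adjusted p = 7.62e-06), and C6orf48 (-0.89), SNHG11 (-0.81) and C17orf76-AS1 (-0.76) also fell. SNHG13, now named DANCR, rose from 51.9 ± 3.46 to 109 ± 4.26 FPKM (change 1.06, SE 0.0585, limma adjusted p = 3.58e-06). Among 48 protein-coding hosts 28 fell and 16 rose, with a median of -0.15, against 37.9% and 25.6% of all genes and a median of -0.09. RPL13A fell by 1.31, and DKC1 (1.20) and EIF4G2 (1.17) rose. With median scaling the protein-coding hosts split into 18 lower and 16 higher, with a median of -0.03, and all 13323 genes tested into 3928 lower and 4539 higher, with a median of 0.02.

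The genes whose levels followed GAS5 most closely over the 6 libraries, among 9160 compared, were EIF4B (Pearson's r = 0.99998), CTBS (0.9993) and HCFC1R1 (0.9992). EIF4B, a translation initiation factor with a 5′ TOP start, stood at 233, 248 and 265 FPKM in the controls and at 147, 142 and 151 FPKM in the knockdown. Its order of libraries within the groups was that of GAS5, with control replicate 3 highest and knockdown replicate 2 lowest. With 6 libraries in 2 groups any gene that differs between the groups gives a high r, and 1780 genes had r above 0.95. Among the hosts themselves the r with GAS5 was 0.99 for ZFAS1 and 0.98 for SNHG5, and -0.46 for SNHG15. These values are descriptions over 6 libraries that share the same group difference.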

How the data were processed

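RNA-seq of A549 cells was used, 3 control and 3 FOXD3 knockdown libraries. The authors deposited FPKM per gene and library, per the file headers, and a table of their own comparison that gives FPKM per group, log2 fold change, p-value and false discovery rate. The submitters' processing notes name the build hg19, Cufflinks 2.0.2 with Cuffdiff, and TopHat2 2.0.12 with Bowtie; for annotation, read length and strand the setting is not given in the sources used here. FPKM was summed over a symbol's rows, and an unlisted symbol was set to 0. Genes averaging 0.5 FPKM or more were tested on log2(FPKM + 1), which understates changes of low genes, with limma 3.58.1 in R 4.3.3 (trend, two-sided, Benjamini-Hochberg over 13340 genes), a script tested on simulated data. There are no counts, so no count model was run. No per-sample column was left out. The hosts and lists were chosen with earlier results of these data known. Named genes were the hosts, FOXD3, snoRNAs inside host loci, up to 3 called genes with the largest change per list, markers at 5 FPKM or more and the 3 genes closest to GAS5. Other genes (fallen members of mostly rising lists, further hosts, neighbours by position, low markers) were named after their values were seen. Alternatives covered pseudocount (0.1, 0.5), filter, scaling, variance model, small RNAs, loci per symbol and leaving out each library.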

Additional observations from a re-analysis of the deposited data

How the results depend on the processing

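GAS5, ZFAS1, SNHG5, SNHG6, SNHG7 and SNHG8 kept their fall and their call in all 16 alternatives. The number of hosts past the threshold was 6 to 8 across them, and 6, all lower, when hosts were matched by symbol only, a setting chosen after seeing the data. SNHG3 changed sign with median scaling (0.0749) and without control replicate 3, its values without 1 library running from -0.0929 to 0.00375. SNHG12 changed sign with median scaling (0.0832) and without knockdown replicate 3, with -0.155 to 0.0498 without 1 library. Neither passed the test in any of them. Of all genes called, 40.4% were higher; this share was 53.6% with median scaling (4539 higher, 3928 lower) and 52.4% with quantile normalization (4304 higher, 3909 lower), which moved the median of all genes from -0.09 to 0.02 and 0.03. Relative to these medians the 7 hosts that fell stayed below. The cause was not tested. No paired analysis was possible because the labels give no replicate numbers, only library codes. Depth is known only roughly, and 3 libraries per group limit what a missed call can show.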
